A study of Mus musculus with 2 samples.

Results

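The loci of 8 microRNAs known from blood cells and microglia were followed in the newborn mouse forebrain. The members were chosen by name: Mir150, Mir155, Mir223, Mir146, Mir142b, Mir144, Mir451a and Mir486. All 8 were found among the 1973 rows of the count tables through their Ensembl identifiers in the GENCODE annotation. The series holds 1 group of 2 microRNA sequencing libraries from B6NCrl mice aged 0 days, each from the whole forebrain of a single animal. Replicate 2 was made from pup 3 and replicate 1 from pup 1. No treatment, genotype or age was compared, the sex was not collected, and the labels list 1 donor for both animals. Levels were therefore described with their spread over the pups (mean ± SD, n = 2 throughout), and the libraries were compared with each other.

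MicroRNAs are cut from hairpin precursors and then guide a silencing complex to messenger RNAs through their seed, bases 2 to 8 of the mature strand. Several are made almost exclusively by blood cells, so in a solid organ they report on the blood in its vessels and on immune cells that live in the tissue, which in the brain are mostly microglia. Mir150 is known from mature lymphocytes, and Mir155 from activated lymphocytes and macrophages. Mir223 is known from granulocytes and their precursors, and Mir146, the gene of miR-146a, is induced by inflammatory signalling in myeloid cells. Mir142 is made in nearly all blood lineages, microglia included. Mir144 and Mir451a are processed from a common transcript of developing red blood cells, and Mir486 lies within the red cell ankyrin gene Ank1 and is also made in muscle. For the comparison, Mir150 and Mir155 were taken as lymphoid, Mir223 and Mir146 as myeloid, and Mir144, Mir451a and Mir486 as erythroid, with Mir142 kept apart as pan-blood. These classes simplify, since Mir155 and Mir146 are made in both lymphoid and myeloid cells. In RNA of a whole tissue, fewer cells of a type and less RNA per cell cannot be told apart, nor can circulating leukocytes be told apart from microglia by these loci.

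The mature sequences below show how far the loci can be separated by sequence, since a read that matches several places is assigned to none of them. Of the 8 members, 7 matched the RefSeq microRNA table of build GRCm38.p6 by symbol. They are printed 5′ to 3′ with the seed in capitals, 1 strand for most loci and both for Mir142. For Mir150 that table holds only the 3p strand, so its 5p strand is not printed.
miR-150-3p (Mir150): cUGGUACAggccugggggauag
miR-155-5p (Mir155): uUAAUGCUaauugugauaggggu
miR-223-3p (Mir223): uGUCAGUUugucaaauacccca
miR-146a-5p (Mir146): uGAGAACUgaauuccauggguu
miR-146b-5p (Mir146b, not a member): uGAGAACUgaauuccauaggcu
miR-142a-5p (Mir142): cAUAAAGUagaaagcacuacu
miR-142a-3p (Mir142): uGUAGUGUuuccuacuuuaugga
miR-142b (Mir142b): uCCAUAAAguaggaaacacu
miR-144-3p (Mir144): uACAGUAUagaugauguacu
miR-451a (Mir451a): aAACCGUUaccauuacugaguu

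No 2 of the members' mature strands shared a seed. Among 1738 mature sequences in the table, the seed of miR-146a-5p recurred once, in miR-146b-5p, and the seeds of the other 11 mature strands searched recurred in none. The miR-146 strands differ outside the seed by G18A and U21C, counted from 1 at the 5′ end of miR-146a-5p. Each of 12 mature strands of the members (those with a hairpin in the table) occurred in exactly 1 of its 1005 hairpins. This search covers the hairpins of the table only, Mir150 and Mir486 were not part of it, and the genome sequence was not used here.

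The hairpins of the erythroid pair differ in where the mature strand sits. Mir144 (chromosome 11, 78073005 to 78073070, plus strand) and Mir451a (chromosome 11, 78073170 to 78073241, plus strand) lie 99 bases apart, and neither overlaps a protein-coding gene in the annotation. Mature strands are in capitals here.
Mir144 hairpin: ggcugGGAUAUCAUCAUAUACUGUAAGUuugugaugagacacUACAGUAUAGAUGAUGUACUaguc
Mir451a hairpin: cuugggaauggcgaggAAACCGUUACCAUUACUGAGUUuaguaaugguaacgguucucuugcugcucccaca
Mir142 hairpin: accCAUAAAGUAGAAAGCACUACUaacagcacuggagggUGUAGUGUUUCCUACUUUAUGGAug

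In the predicted minimum free energy fold, miR-451a ran from base 17 to base 38 of its hairpin and took up all 4 bases of the terminal loop at bases 35 to 38. Neither mature strand of Mir144 entered its loop of 6 bases, and those of Mir142 did not enter its loop of 4 bases. Mir451a is known as the microRNA that matures without Dicer, through a cut by Argonaute2 within a hairpin too short for Dicer. Mir142 is printed because its counts lie on the strand opposite the deposited row, as described next.

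The deposited row for Mir142b held counts only on the strand that is not its own. Mir142b is annotated on the minus strand of chromosome 11 (87756841 to 87756955), and Mir142, which has no row, lies within it on the plus strand (87756864 to 87756927), in an intron of the noncoding transcript Mir142hg. The opposite strand of Mir142b had 432 counts in pup 3 and 558 in pup 1, while the gene strand had 0 in each. Given a floor of 3 counts for a count of 0, the opposite strand was at least 144-fold higher in pup 3 and at least 186-fold higher in pup 1. The 20 bases of miR-142b are at the same position as bases of miR-142a-3p on the other strand, so this comparison is one of direction and not of place. Counts of the opposite strand of Mir142b are given below as Mir142. They are counts per hairpin and do not separate the 5p from the 3p strand.

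The other 7 loci were counted on their own strand. Over all rows, the opposite strand held 1.87% of the counts in pup 3 and 2.41% in pup 1. Mir155, Mir223, Mir146, Mir144 and Mir451a had no opposite-strand count in either pup, and Mir150 had 0 in pup 3 and 1 in pup 1. The hairpin Mir451b, annotated on the strand opposite Mir451a, has no row of its own. Its strand had 0 counts in each pup beside 90 counts of Mir451a in pup 3 and 140 in pup 1, which allows an opposite-strand share of up to 4.02% and 2.60% (upper bounds of the 95% exact Clopper-Pearson interval). Mir486 was the only member with several counts on both strands, with 3 opposite-strand counts beside 36 on its strand in pup 3 and 3 beside 33 in pup 1. The opposite-strand share was 7.69% in pup 3 (95% exact interval 1.62 to 20.9%) and 8.33% in pup 1 (1.75 to 22.5%), and the hairpin Mir3107 is annotated there (chromosome 8, 23142573 to 23142662, minus strand). Of 342 loci with at least 10 counts on both strands together in each pup, 300 had no opposite-strand count at all and 11 had more on the opposite strand in both pups, with Mir142b at the tenth place of the 11 by level.

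All 8 loci were detected, here meaning at least 10 counts in each pup, and all had means below the median of the detected loci. Gene-strand counts totalled 2427066 in pup 3 and 2742746 in pup 1, so 3 counts correspond to 1.24 CPM (counts per 1000000 gene-strand counts) in pup 3 and 1.09 CPM in pup 1. The 8 loci together held 676 CPM in pup 3 and 738 CPM in pup 1. The highest, Mir150, ranked behind 175 of the 331 detected loci, whose median level was 232 CPM. The lowest, Mir486, ranked behind 285 of them. Mir99a, the most abundant locus of the series, was 1375-fold above Mir150 and 20051-fold above Mir486 in the mean. Adapter ligation and PCR do not capture all short RNAs equally, so levels of different loci are compared with less certainty than a locus between libraries. Intervals cover counting error only, because no molecular identifiers are named and copies made by PCR count as separate reads.

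**Figure D1:**
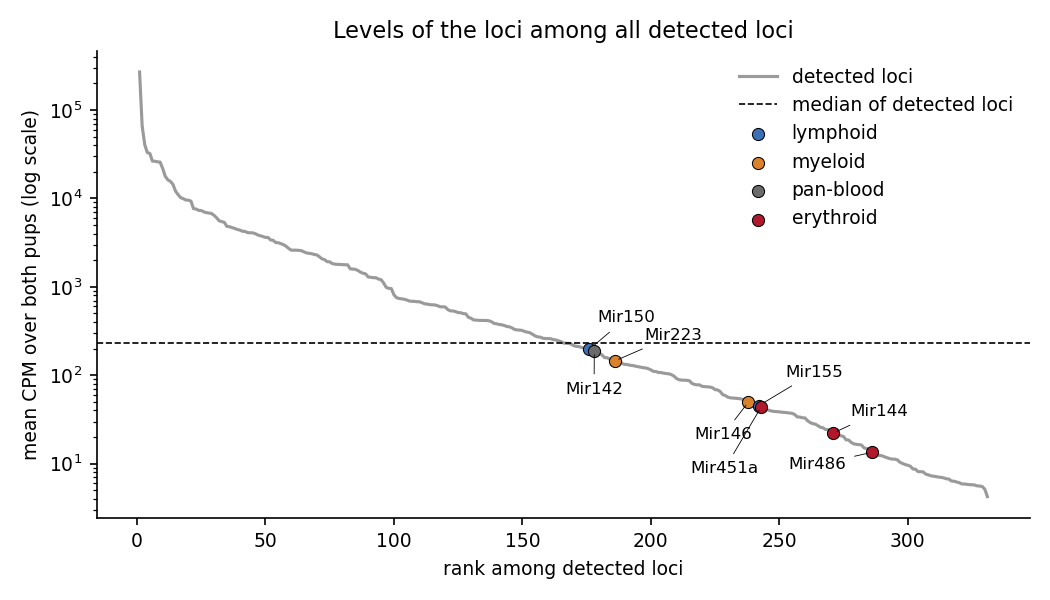
Mean CPM over both pups (log scale) against rank for the 331 detected loci (grey line), with the 8 blood cell loci as points coloured by class and the median of detected loci as a dashed line. All 8 points lie below the median of 232 CPM, from Mir150 at 196 CPM to Mir486 at 13.4 CPM.

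The lymphoid Mir150 was the most abundant of the 8. Mir150 (ENSMUSG00000065495.1, chromosome 7, 45121757 to 45121821, plus strand, in no annotated host gene) had 505 counts in pup 3 and 504 in pup 1. On the CPM scale it had 208 in pup 3 (95% exact interval 190 to 227) and 184 in pup 1 (168 to 201), with a mean of 196 ± 17.2 CPM. The intervals of the pups overlapped on this scale. The SD of Mir150 was larger on the other scales, at 41.4 with TMM-adjusted library sizes and 47.5 with DESeq2 size factors. Mir155 (ENSMUSG00000065397.1, chromosome 16, 84714140 to 84714204, plus strand), which lies in an exon of its noncoding host Mir155hg, was lower, with 96 counts in pup 3 and 140 in pup 1. It had 39.6 CPM in pup 3 (32.0 to 48.3), 51.0 CPM in pup 1 (42.9 to 60.2) and a mean of 45.3 ± 8.12 CPM. Mir150 exceeded Mir155 by 5.26-fold in pup 3 (95% exact binomial interval 4.22 to 6.61) and by 3.60-fold in pup 1 (2.98 to 4.37), a ratio that does not depend on how the libraries are scaled.

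Of the myeloid loci, Mir223 was the higher in both pups. Mir223 (ENSMUSG00000076066.1, X chromosome, 96242817 to 96242926, plus strand), within an exon of the noncoding transcript F630028O10Rik, had 356 counts in pup 3 and 395 in pup 1. That made 147 CPM in pup 3 (132 to 163) and 144 CPM in pup 1 (130 to 159), a mean of 145 ± 1.88 CPM. This small SD belongs to the scale of gene-strand totals: it was 19.8 with TMM-adjusted library sizes and 24.3 with DESeq2 size factors, where Mir223 was called higher in pup 3, as given below. Mir146 (ENSMUSG00000065601.1, chromosome 11, 43374397 to 43374461, minus strand) had 79 counts in pup 3 and 185 in pup 1. Its level was 32.5 CPM in pup 3 (25.8 to 40.6) and 67.5 CPM in pup 1 (58.1 to 77.9), with a mean of 50 ± 24.7 CPM. Here the intervals of the pups did not overlap, and pup 3 was the lower, but the share of all loci without overlap was not taken. Mir223 exceeded Mir146 by 4.51-fold in pup 3 (3.52 to 5.83) and by 2.14-fold in pup 1 (1.79 to 2.56).

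Mir146b, which shares the seed of Mir146, was lower than Mir146 in both pups. It had 20 counts (8.24 CPM) in pup 3 and 22 counts (8.02 CPM) in pup 1. Mir146 exceeded it by 3.95-fold in pup 3 (2.39 to 6.81) and by 8.41-fold in pup 1 (5.39 to 13.7). These intervals overlap.

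Mir142 was about as high as Mir150. It had 178 CPM in pup 3 (162 to 196) and 203 CPM in pup 1 (187 to 221), with a mean of 191 ± 18.0 CPM on the scale of gene-strand counts. Mir142 over Mir150 was 0.855 in pup 3 (0.751 to 0.975) and 1.11 in pup 1 (0.980 to 1.25). The interval of pup 1 includes 1, so the order of the pair is not resolved there. Mir142 over Mir223 was 1.21 in pup 3 (1.05 to 1.40) and 1.41 in pup 1 (1.24 to 1.61).

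The erythroid loci were among the lowest of the 8. Mir451a (ENSMUSG00000070065.1) had 90 counts in pup 3 and 140 in pup 1, which is 37.1 CPM in pup 3 (29.8 to 45.6) and 51.0 CPM in pup 1 (42.9 to 60.2), with a mean of 44.1 ± 9.87 CPM. Mir144 (ENSMUSG00000065401.1) had 47 counts in pup 3 and 69 in pup 1, or 19.4 CPM in pup 3 (14.2 to 25.8) and 25.2 CPM in pup 1 (19.6 to 31.8), with a mean of 22.3 ± 4.10 CPM. Both had fewer CPM in pup 3 than in pup 1, with overlapping intervals. Their ratio was close to the same in the pups, with Mir451a over Mir144 at 1.91 in pup 3 (1.33 to 2.79) and 2.03 in pup 1 (1.51 to 2.75). Mir486 (ENSMUSG00000070084.3, chromosome 8, 23142555 to 23142682, plus strand, in an intron of Ank1) had 36 counts in pup 3 and 33 in pup 1. It had 14.8 CPM in pup 3 (10.4 to 20.5), 12.03 CPM in pup 1 (8.28 to 16.9) and a mean of 13.4 ± 1.98 CPM. Mir451a over Mir486 was 2.50 in pup 3 (1.68 to 3.79) and 4.24 in pup 1 (2.89 to 6.40). Reads that match several places are at no locus, and Mir486 sequences were not searched, so how complete its counts are was not tested.

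**Figure D2:**
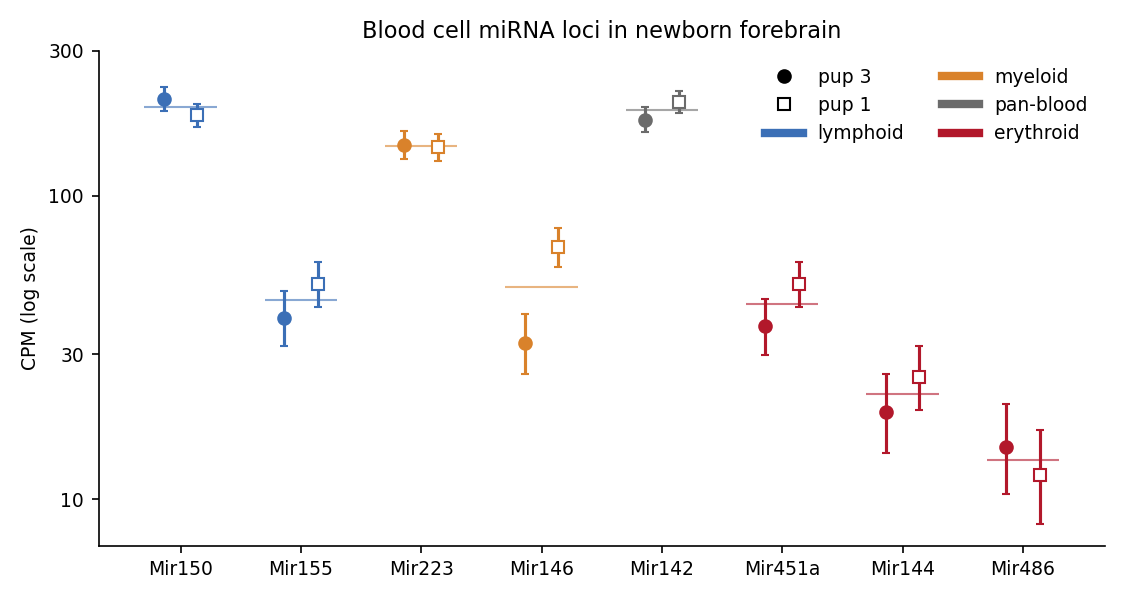
CPM (log scale) of the 8 loci in pup 3 (filled circles) and pup 1 (open squares), coloured by class. Vertical bars are 95% exact Clopper-Pearson intervals, which cover counting error only, and horizontal lines are means over both pups. The intervals of the pups overlap for every locus except Mir146, at 32.5 CPM in pup 3 and 67.5 CPM in pup 1. The share of all loci without overlap was not taken, and Fisher's exact test called 56.4% of all features tested.

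In the order of mean levels, Mir150 came first and was followed by Mir142, Mir223, Mir146, Mir155, Mir451a, Mir144 and Mir486. The means of Mir150 and Mir142 differed by 5.19 CPM, less than the SD of either. Mir146, Mir155 and Mir451a could not be ordered either: their means lay within 4.70 and 1.24 CPM of the next, less than their SDs, and their ranges over the pups overlapped. The steps from Mir142 to Mir223, from Mir223 to Mir146, from Mir451a to Mir144 and from Mir144 to Mir486 had no overlap of the pups' CPM. Of these, the step from Mir144 to Mir486 was within counting error in pup 3, at 1.31-fold (0.828 to 2.07), and beyond it in pup 1, at 2.09-fold (1.36 to 3.27). With 2 libraries, no exact permutation test over samples can go under 0.05, so this order has no p-value.

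Summed by class, the lymphoid and myeloid loci stood above the erythroid loci in both pups. The lymphoid pair had 248 CPM in pup 3 (228 to 268) and 235 CPM in pup 1 (217 to 254), with a mean of 241 ± 9.07 CPM. The myeloid pair had 179 CPM in pup 3 (163 to 197) and 211 CPM in pup 1 (195 to 229), with a mean of 195 ± 22.8 CPM. The 3 erythroid loci had 71.3 CPM in pup 3 (61.1 to 82.7) and 88.2 CPM in pup 1 (77.5 to 100.1), with a mean of 79.8 ± 11.99 CPM. The erythroid range over the pups lay below both others. These SDs belong to the scale of gene-strand totals, and their order changed on the other scales. With TMM-adjusted library sizes they were 38.8 for the lymphoid, 1.15 for the myeloid and 2.22 for the erythroid loci. With DESeq2 size factors they were 46.3, 7.15 and 0.221.

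Ratios between the classes were taken within each library, where the scale cancels. Lymphoid over erythroid was 3.47 in pup 3 (2.93 to 4.14) and 2.66 in pup 1 (2.29 to 3.10). Myeloid over erythroid was 2.51 in pup 3 (2.10 to 3.02) and 2.40 in pup 1 (2.06 to 2.80). Lymphoid over myeloid was 1.38 in pup 3 (1.22 to 1.57) and 1.11 in pup 1 (0.991 to 1.24), an interval that includes 1 in pup 1. The last direction also depended on where Mir142 was put: with Mir142 counted as myeloid, lymphoid over myeloid was 0.693 in pup 3 and 0.566 in pup 1. With only Mir150, Mir223 and the pair of Mir144 and Mir451a, lymphoid over myeloid was 1.42 in pup 3 (1.24 to 1.63) and 1.28 in pup 1 (1.12 to 1.46), and myeloid over erythroid was 2.60 in pup 3 and 1.89 in pup 1.

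**Figure D3:**
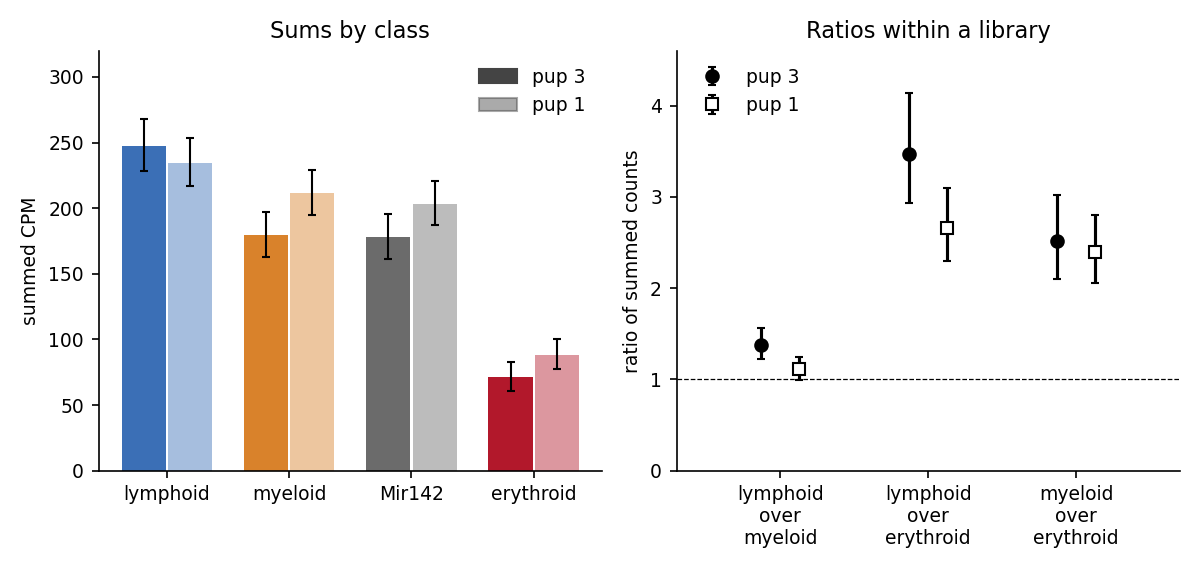
Left, summed CPM of the lymphoid, myeloid, pan-blood (Mir142) and erythroid loci in pup 3 (dark bars) and pup 1 (light bars). Right, ratios of summed counts within each library, with a dashed line at 1. Error bars are 95% exact intervals for counting error. Erythroid sums, 71.3 CPM in pup 3 and 88.2 CPM in pup 1, are the lowest of the classes in each pup.

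As shares of the 8 loci together, the lymphoid class was higher in pup 3 than in pup 1, through Mir150 and not Mir155. Lymphoid loci made up 36.6% in pup 3 (34.3 to 39.0%) and 31.8% in pup 1 (29.8 to 33.9%). Myeloid loci made up 26.5% in pup 3 (24.4 to 28.7%) and 28.7% in pup 1 (26.7 to 30.7%). Erythroid loci made up 10.5% in pup 3 (9.10 to 12.1%) and 11.96% in pup 1 (10.6 to 13.5%). Mir142 made up 26.3% in pup 3 (24.2 to 28.5%) and 27.6% in pup 1 (25.6 to 29.6%). Of the single loci, Mir150 made up 30.8% in pup 3 (28.5 to 33.1%), against 24.9% in pup 1 (23.0 to 26.8%). Mir155 made up 5.85% in pup 3 (4.76 to 7.10%), against 6.92% in pup 1 (5.85 to 8.11%). Mir223 made up 21.7% in pup 3 (19.7 to 23.8%), against 19.5% in pup 1 (17.8 to 21.3%). Mir146 made up 4.81% in pup 3 (3.83 to 5.96%), against 9.14% in pup 1 (7.92 to 10.5%). Shares of a fixed set depend on each other, so a lower share of Mir146 in pup 3 goes with higher shares elsewhere. A higher share of Mir150 is therefore not by itself a higher level.

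Between the libraries, on the scale of gene-strand totals, Mir146 and Mir451a were lower in pup 3, and the other 6 loci did not pass the test. Each locus was compared with the rest of its library by a two-sided Fisher's exact test, with p-values adjusted by Benjamini-Hochberg over 401 features of at least 10 summed counts and a threshold of 0.05, which compares these 2 libraries and not a condition. It called 56.4% of all features tested, 46.1% as lower and 10.2% as higher in pup 3, so 2 of 8 members called is no larger a share than in the background, which includes far more abundant loci. The log2 ratio of pup 3 over pup 1, on CPM with a pseudocount of 1, had a median of −0.31 over all features tested. Mir146 had a log2 ratio of −1.03 (adjusted exact p = 6.06e-08), lower in pup 3 than in pup 1, and only 11 of the 331 detected loci had a lower ratio. Mir451a had −0.45 (adjusted exact p = 0.0318), which is 0.14 below the median, and 116 detected loci had a lower one.

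The remaining log2 ratios were small. Mir150 had 0.18, Mir223 0.03, Mir142 −0.19, Mir155 −0.36, Mir144 −0.36 and Mir486 0.28, with adjusted exact p between 0.0647 (Mir142) and 0.896 (Mir223). Mir155 and Mir144 thus stood within 0.05 of the median ratio of all features. Mir486 rested on 36 counts in pup 3 and 33 in pup 1, too few for a difference of this size to be detectable at this depth. Whether reads of Mir486 were lost because they match several places was not tested.

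Which loci passed depended on the scale of the libraries. With DESeq2 size factors, whose median log2 ratio over all features was −0.02, an exact binomial test called 45.1% of the features, 20.7% as lower and 24.4% as higher in pup 3. On that scale Mir146 was lower in pup 3 (log2 ratio −0.72, adjusted exact p = 0.000323), and Mir150 (0.49, adjusted exact p = 2.52e-07) and Mir223 (0.34, adjusted exact p = 0.00398) were higher. Mir451a, at −0.14, did not pass (adjusted exact p = 0.625). TMM-adjusted library sizes, with 46.4% of the features called, called the same 3 loci in the same directions. Mir146 was the only member called lower in pup 3 on all 3 scales and also the only one called with a further condition of at least 1.5-fold, which 20% of the features met, or with all 671 features of at least 1 summed count tested, of which 32.8% were called.

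**Figure D4:**
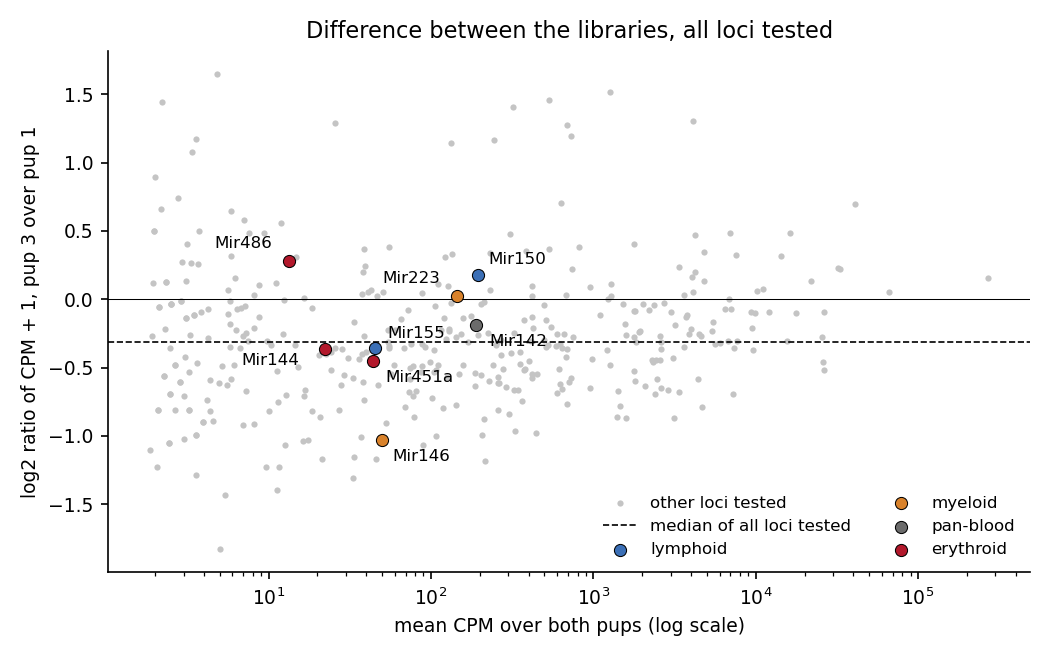
Log2 ratio of CPM + 1 in pup 3 over pup 1 against the mean CPM over both pups (log scale) for the 401 features tested, with the 8 blood cell loci coloured by class and the median of −0.31 as a dashed line. Mir146 lies lowest of the 8 at −1.03, Mir486, Mir150 and Mir223 lie above 0, and the others lie between −0.45 and −0.19.

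Other microRNAs known from blood cells, most of them also made in many tissues, ranged from above all of the 8 loci to below them. Of 13 on the list, 10 had a row and all 10 were detected, with a sum of 13846 CPM in pup 3 and 16134 CPM in pup 1 that lay mainly in 2 loci. These were Mir342, at 8859 CPM in pup 3 and 10258 CPM in pup 1, and Mir21a, at 3546 CPM in pup 3 and 3880 CPM in pup 1. Mir146b, given above, and Mir29b-1, at 4.53 CPM in pup 3 and 9.48 CPM in pup 1, had means below that of Mir486. Fisher's exact test called 7 of these 10 lower and none higher in pup 3, beside 46.1% of all features called lower and 10.2% called higher, with a median log2 ratio of −0.38 beside −0.31 over all features.

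The summed 8 loci were low beside the highest loci of the vessel wall and of neurons. Mir126a, known from vessel endothelium, had 35573 CPM in pup 3 and 30517 CPM in pup 1, which is 52.6 times the sum of the 8 loci in pup 3 and 41.4 times in pup 1. Mir143 of smooth muscle followed in the vessel list, with 3698 CPM in pup 3 and 4307 CPM in pup 1, while Mir145a, at 111 CPM in pup 3 and 136 CPM in pup 1, had a mean below those of Mir150, Mir142 and Mir223. Of the 6 loci on the neuronal list, given to check the label of the tissue, 4 were detected. Mir137 had 23308 CPM in pup 3 and 28264 CPM in pup 1 and Mir128-1 had 11337 CPM in pup 3 and 10765 CPM in pup 1. The loci Mir124a-1, Mir124a-2 and Mir124a-3, copies of a gene of one neuronal microRNA, were near the floor, at 8.65, 1.65 and 0.824 CPM in pup 3 and 5.47, 1.82 and 1.09 CPM in pup 1. Reads that match several places are at no locus, and their part in these low values was not tested.

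Since Mir486 is also a muscle microRNA, the muscle list is given beside it. Of its 10 loci, 9 had a row and 2 were detected, and the 9 together had 52.7 CPM in pup 3 and 27.0 CPM in pup 1. Mir208b had 37.1 CPM in pup 3 and 14.6 CPM in pup 1, and Mir206 had 4.53 CPM in pup 3 and 7.29 CPM in pup 1, while 4 others, Mir133b, Mir133a-1, Mir133a-2 and Mir1a-1, had 0 counts in each pup. Mir133a and Mir1a have further copies, so a count of 0 there does not show that the microRNA was absent. All muscle loci with a row except Mir208b had means below that of Mir486. Mir122, which defines the liver, had 63.0 CPM in pup 3 and 48.1 CPM in pup 1. The part of muscle RNA in the level of Mir486 was not tested.

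Loci of like level were found by the distance of log2(CPM + 1) over the 2 libraries among 324 detected loci outside the 8. Mir483 was nearest to Mir150 (distance 0.17), with 201 CPM in pup 3 and 206 CPM in pup 1. Mir669l was nearest to Mir223 (0.19), with 131 CPM in pup 3 and 134 CPM in pup 1. Mir3102 was nearest to Mir451a (0.16), with 36.7 CPM in pup 3 and 57.2 CPM in pup 1. Over 2 libraries this likeness is one of level only.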

How the data were processed

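MicroRNA sequencing of total RNA had been done on 2 single forebrains, 1 library each. The authors deposited raw read counts per miRNA gene for both strands together, the gene strand and the opposite strand (layout read from the values), on mm10 with annotation M4 per the text deposited with the files. Which aligner and counter were used is not given in the sources used. The 4 rows that name no gene were left out, and multi-mapping reads, 44.1% of the reads in pup 3 and 42.2% in pup 1, are at no locus. Symbols and coordinates came from GENCODE M21 on GRCm38, the assembly of mm10, for 1894 of 1973 rows.

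Mir142 was scaled by the gene-strand total as well. Fisher's exact test ran across all features with at least 10 summed counts and was tested on simulated data. A single group gives edgeR's quasi-likelihood test no contrast. TMM factors came from edgeR 4.0.16, size factors from DESeq2 1.42.0, folds from ViennaRNA 2.7.2, and the rest from Python 3.11.15 with scipy 1.17.1. Alternatives were other scales, both strands together, other classes, filters, pseudocounts and single pups. Members, classes and lists were chosen with earlier results of these data known. All members were named, with the 2 highest loci of each list and the locus nearest in level to Mir150, Mir223 and Mir451a. Muscle loci without counts, the Mir124a loci, Mir29b-1, Mir145a and Mir146b were named with their values in view.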

Additional observations from a re-analysis of the deposited data

How the results depend on the processing

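Without the most abundant locus in the total, the summed CPM moved to 330 for the lymphoid, 267 for the myeloid and 109 for the erythroid loci, since the total shrinks by the construction of this setting. With Mir142 counted as myeloid, the mean of lymphoid over myeloid turned to 0.630 and that of myeloid over erythroid became 4.86. With 1 defining locus or pair a class, myeloid over erythroid was 2.24. The count of members called was 1 with at least 1 summed count tested, where more features are adjusted over, and 1 with at least 1.5-fold required. Mir142 changed direction with TMM, at a log2 ratio of 0.058, and with size factors, at 0.12, and passed on no scale. Of 120 alternative values, 96 kept their direction, their side of the threshold or their place within the spread of the pups. This count is no measure of robustness, since part of the 96 could not come out otherwise. With 2 pups, a single pup always lies within the SD of the mean. Another pseudocount changes neither the sign of a ratio nor its test. All 8 loci were also detected with at least 5 counts, and 6 with at least 50. Taking each pup alone gave the values per pup in the report, and Mir146 was the only locus whose level from pup 3 alone, 32.5 CPM, differed from its mean by over 1.5-fold. The number of reads limits Mir144 and Mir486 most.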
